A study of Mus musculus with 6 samples.

Results

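Polycomb repressive complex genes were examined across sorted bone marrow stem and progenitor cells of adult mice. The set held 10 genes chosen by their place in the complexes: Ezh2, Ezh1, Suz12 and Eed of Polycomb repressive complex 2 (PRC2), and Bmi1, Pcgf2, Cbx2, Cbx7, Cbx8 and Phc1 of Polycomb repressive complex 1 (PRC1). Earlier results of these data were known when they were chosen. They were 10 of 18194 genes that the arrays measured under a single symbol, and each was read from the probe set with the highest mean over the 6 arrays. No filter on low values was used, so all 10 were tested. A probe set is a group of short probes against one transcript, and its value is given here as log2 of the deposited intensity.

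The arrays fell into 3 groups of 2. All cells carried SCA1 and KIT and lacked mature lineage markers (the LSK gate). E2A-KO LMPP, lymphoid-primed multipotent progenitors, had high FLT3 and came from E2A-KO mice on a C57bl/6 background. WT LMPP passed the same gate in C57bl/6 mice, and WT LSK FLT3- were the FLT3-negative LSK cells of C57bl/6 mice, among which are the blood stem cells. E2A is the name for the pair of basic helix-loop-helix proteins encoded by Tcf3. The sources used here do not say whether E2A was absent from all cells of the mice, or whether paired arrays stem from different animals or sorts. P-values therefore reflect only array-to-array spread, which may be technical. E2A-KO LSK FLT3- cells were not analysed here. The stated aim of the series was to find expression changes between KO and WT LMPP.

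Polycomb proteins keep genes silent through chromatin. PRC2 methylates histone H3 through its catalytic subunit EZH2 or EZH1, and its core subunits EED and SUZ12 are needed for that activity. PRC1 ubiquitylates histone H2A through a RING protein paired with a PCGF protein such as BMI1, and its canonical form is brought to methylated H3 by a CBX protein. In blood, BMI1 is known for the self-renewal of stem cells, and EZH2 for dividing progenitors and early B lymphocyte development.

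The promoters of Bmi1 and Ezh2 are shown because these genes gave the firmest differences in each direction. Each stretch is the 250 bases before the gene's start in RefSeq on GRCm38.p6, written 5′ to 3′ on the gene's strand. For Bmi1 the window is chr2:18676768-18677017 on the plus strand, and for Ezh2 it is chr6:47595031-47595280 on the minus strand. Capitals mark matches to CANNTG, the general E-box pattern, and to CCAAT on either strand, a box common in promoters of cell cycle genes. E2A proteins bind some sequences of the CANNTG pattern and not every one.
Bmi1: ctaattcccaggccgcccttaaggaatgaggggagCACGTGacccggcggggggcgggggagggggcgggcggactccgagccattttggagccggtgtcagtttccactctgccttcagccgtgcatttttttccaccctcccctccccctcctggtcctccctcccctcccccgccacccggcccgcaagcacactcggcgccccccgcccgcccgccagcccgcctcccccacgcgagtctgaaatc
Ezh2: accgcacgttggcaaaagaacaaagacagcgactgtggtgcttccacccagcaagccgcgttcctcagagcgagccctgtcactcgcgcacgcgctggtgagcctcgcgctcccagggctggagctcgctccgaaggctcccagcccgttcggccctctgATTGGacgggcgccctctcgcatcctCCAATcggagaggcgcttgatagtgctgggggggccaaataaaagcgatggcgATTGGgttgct
The Bmi1 window held 1 CANNTG and 0 CCAAT, and the Ezh2 window held 0 CANNTG and 3 CCAAT. The Bmi1 match reads CACGTG, and binding of E2A to it was not tested. Windows were found for 9 of the 10 genes. CANNTG was in 6 of these 9 and in 66.2% of 32851 windows of the same length, and CCAAT was in 4 of 9 and in 33.9% of all windows. TTTNNCGC, an E2F-like motif searched on both strands, was in 1 of 9 (Suz12) and in 4.28% of all windows. CANNTG reads the same on both strands, and no matches overlapped in the windows shown. A match is a description of the letters and not evidence of binding.

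Facts of the whole series that touch these results were few. Tcf3, the targeted gene, had 3 probe sets. The brightest had 6.80 and 6.53 in E2A-KO LMPP, against 6.93 and 6.86 in WT LMPP and 7.27 and 7.41 in WT LSK FLT3-. It differed between KO and WT LMPP by -0.23 ± 0.15 (SE, limma adjusted p = 0.546), and the other Tcf3 probe sets did not pass either. Where these probes lie relative to the deleted part is not given, so Tcf3 does not check the KO label. The gates fitted their markers: all 4 measured stem cell markers were lower in WT LMPP than in WT LSK FLT3- and all 5 LMPP markers were higher, while 3 of 5 LMPP markers were lower in E2A-KO than in WT LMPP. Array medians lay between 3.90 and 4.04, and values near them are in the low range where changes are compressed. Upper quartiles were 5.78 to 5.82 on the LMPP arrays, against 6.13 and 6.15 on the WT LSK FLT3- arrays. The part of this upper offset in the differences from WT LSK FLT3- was not tested.

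Between WT LMPP and WT LSK FLT3-, the Polycomb genes did not move as a block. Bmi1, which pairs with a RING protein in PRC1, was 1.75-fold lower in WT LMPP, and Eed, the PRC2 subunit that reads methylated H3, was 1.34-fold lower. Ezh2, the main H3 methyltransferase, was 1.44-fold higher. In bulk samples, fewer cells with a transcript and less of it per cell cannot be told apart. These were 1 higher, 2 lower and 7 that did not pass, where 34.1% of all genes passed (10.4% higher and 23.7% lower, limma, Benjamini-Hochberg over 18194 genes). The share of Polycomb genes called was thus close to that of all genes. Of the 10, 0 had a mean below the array median, though Cbx7 and Pcgf2 were among the dimmest 40% of genes. Without the dimmest 40% 5595 genes passed, against 6198 of all 18194, so the share was larger among brighter genes. The median change of the 10 was -0.10, against -0.01 over all genes and -0.29 over all genes without the dimmest 40%. Of the genes called, 30.5% were higher, against 47.4% with quantile normalization and 17.8% with array medians centred, and centring moved the median of all genes to -0.12.

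Ezh2 had 10.38 and 10.35 in WT LMPP, against 9.86 and 9.81 in WT LSK FLT3-. Both LMPP arrays lay above both LSK FLT3- arrays, and the spread within each group was small. Ezh2 averaged 10.37 ± 0.02 in WT LMPP and 9.84 ± 0.03 in WT LSK FLT3- (SD, n = 2 each), a change of 0.53 ± 0.13 (SE, 95% interval 0.24 to 0.82, limma adjusted p = 0.0129). It has a single probe set. The change kept its direction in all 15 alternatives, though several of these cannot alter it, such as the variance model or leaving out an E2A-KO array. With only 1 WT LSK FLT3- array it no longer passed, with a change of 0.55 without array 1 and 0.51 without array 2.

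Ezh1, the other H3 methyltransferase, which is known for resting and differentiated cells, had 7.77 and 7.77 in WT LMPP, against 7.87 and 7.64 in WT LSK FLT3-. The LMPP values lay between the LSK FLT3- values. The difference was 0.01 (95% interval -0.29 to 0.32, limma adjusted p = 0.944). It turned to -0.09 with array medians centred and rose to 0.37 with quantile normalization (limma adjusted p = 0.0913), so it depended on the scaling. The 3 other Ezh1 probe sets lay near or below the array median and did not pass.

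Within each array, Ezh2 minus Ezh1 was 2.98 and 2.80 in E2A-KO LMPP, 2.61 and 2.58 in WT LMPP, and 1.99 and 2.17 in WT LSK FLT3- (log2). The size of such a difference between probe sets has no meaning of its own, but its shift between groups does not depend on array scaling by a constant. The 3 groups did not overlap, and how many other pairs of genes do the same was not counted. The shift was 0.52 for WT LMPP minus WT LSK FLT3-, 0.29 for E2A-KO LMPP minus WT LMPP and 0.81 for E2A-KO LMPP minus WT LSK FLT3-, and groups of 2 arrays are too few for an exact permutation test to pass 0.05. Between E2A-KO and WT LMPP, Ezh2 differed by -0.01 and Ezh1 by -0.31, so that shift rests on the brightest Ezh1 probe set. The Ezh1 difference did not pass, and the mean of all Ezh1 probe sets gave 0.05.

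Suz12, the PRC2 core subunit that holds the complex together, was read differently by its probe sets. The brightest had 9.63 and 9.91 in WT LMPP, against 9.996 and 10.06 in WT LSK FLT3-, a difference of -0.26 (95% interval -0.59 to 0.08, limma adjusted p = 0.203). Of 5 other probe sets, 2 were lower by about 1 log2 unit. Probe set 1427253_s_at had 6.38 and 6.70 in WT LMPP, against 7.49 and 7.75 in WT LSK FLT3-, a change of -1.08 ± 0.16 (SE, limma adjusted p = 0.00225 over all 45101 probe sets). Probe set 1452364_at had 5.58 and 5.65 in WT LMPP, against 6.67 and 6.65 in WT LSK FLT3-, a change of -1.05 ± 0.18 (SE, limma adjusted p = 0.00365 over all probe sets). In this fit 23.6% of all probe sets passed. The other 3 differed by -0.17 to 0.17 and did not pass, and the mean of all 6 gave -0.42 (limma adjusted p = 0.0250), so the call for Suz12 depends on the probe set.

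Eed had 9.65 and 9.75 in WT LMPP, against 10.05 and 10.20 in WT LSK FLT3-. The groups did not overlap. Eed averaged 9.70 ± 0.07 in WT LMPP and 10.13 ± 0.11 in WT LSK FLT3- (SD, n = 2 each), a change of -0.42 ± 0.13 (SE, 95% interval -0.72 to -0.12, limma adjusted p = 0.0367). The Eed call was fragile: it did not pass without any 1 of the 4 arrays compared (limma adjusted p = 0.0533 to 0.231), with quantile normalization (-0.18, 0.365) or over all probe sets (0.0559). Its second probe set gave -0.35 and did not pass.

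**Figure D1:**
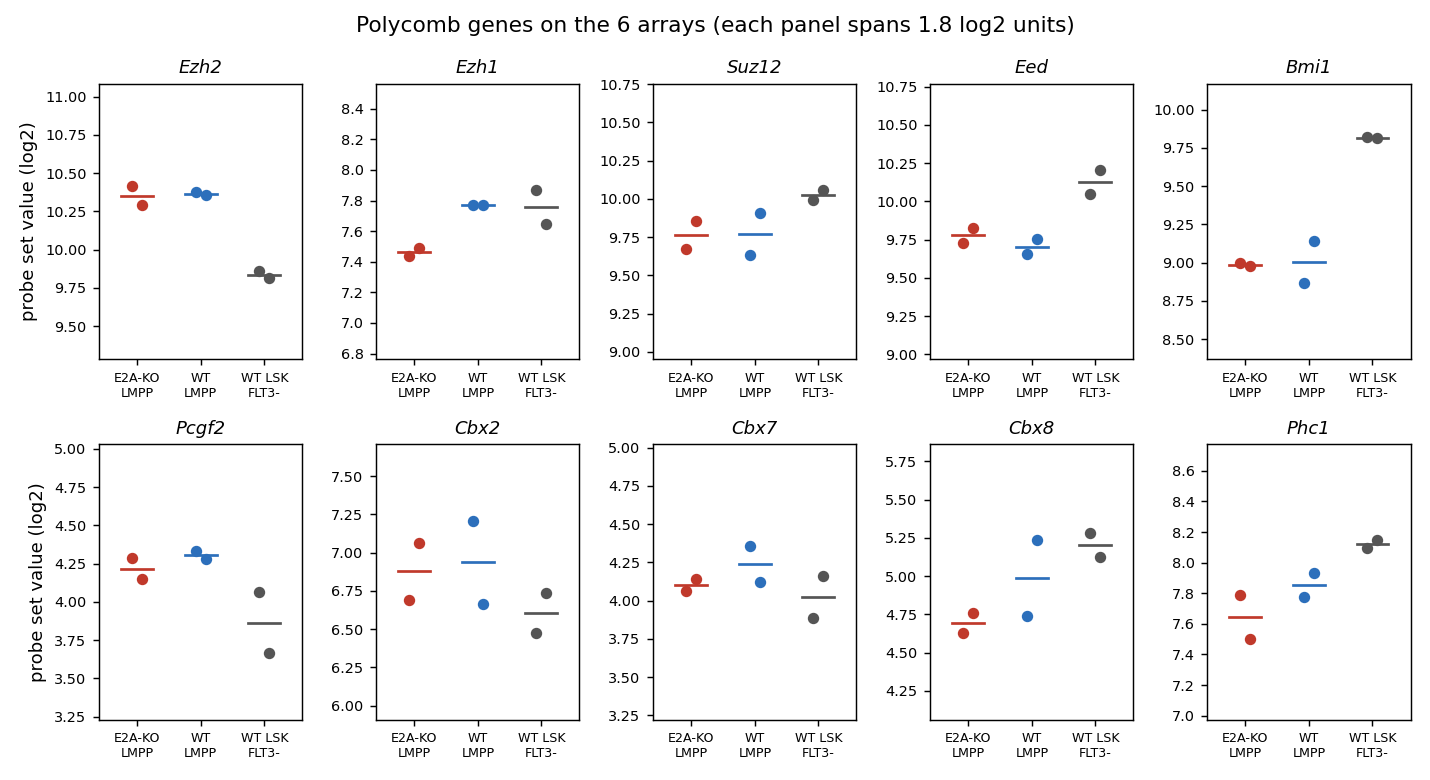
Probe set values (log2) of the 10 Polycomb genes on each array; each panel is 1 gene, points are arrays, bars are group means, and the groups run from E2A-KO LMPP through WT LMPP to WT LSK FLT3-. Ezh2 sits higher and Bmi1 lower in both LMPP groups than in WT LSK FLT3-, with mean Bmi1 at 8.99, 9.01 and 9.82.

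Bmi1 had 8.87 and 9.14 in WT LMPP, against 9.82 and 9.81 in WT LSK FLT3-. Both LMPP arrays were below both LSK FLT3- arrays by more than the spread within either group. Bmi1 averaged 9.01 ± 0.19 in WT LMPP and 9.82 ± 0.0051 in WT LSK FLT3- (SD, n = 2 each), a change of -0.81 ± 0.14 (SE, 95% interval -1.12 to -0.49, limma adjusted p = 0.00306). The second Bmi1 probe set, 1448733_at, had 6.97 and 7.48 in WT LMPP, against 8.30 and 8.11 in WT LSK FLT3-, a change of -0.98 ± 0.18 (SE, limma adjusted p = 0.00612 over all probe sets). Bmi1 and Suz12 were the genes of the set with 2 probe sets called lower, and for Suz12 the brightest was not among them. The Bmi1 call held in all 15 alternatives, with changes from -0.95 to -0.56, though several of these cannot alter the estimate.

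Pcgf2, the BMI1 relative also called Mel18, had 4.33 and 4.28 in WT LMPP, against 4.06 and 3.67 in WT LSK FLT3-. The difference was 0.44 (95% interval 0.08 to 0.80) and did not pass (limma adjusted p = 0.0606), and its values lay near the array median. The second Pcgf2 probe set gave -0.19.

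The CBX proteins, which bind methylated H3, gave no call on their brightest probe sets. Cbx2 had 7.21 and 6.67 in WT LMPP, against 6.48 and 6.74 in WT LSK FLT3-, a difference of 0.33 (95% interval -0.14 to 0.80, limma adjusted p = 0.241). With quantile normalization the Cbx2 difference was 0.72 (limma adjusted p = 0.0504). Cbx7 had 4.36 and 4.12 in WT LMPP, against 3.89 and 4.16 in WT LSK FLT3-, a difference of 0.22 (95% interval -0.13 to 0.56, limma adjusted p = 0.291). For both genes the arrays of the groups overlapped, and Cbx7 lay near the array median.

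Cbx8 had 4.74 and 5.24 in WT LMPP, against 5.28 and 5.13 in WT LSK FLT3-, a difference of -0.22 (95% interval -0.62 to 0.18, limma adjusted p = 0.363). Its dimmer probe set 1419199_at went the other way. It had 3.82 and 4.10 in WT LMPP, against 3.31 and 3.23 in WT LSK FLT3-, a change of 0.69 ± 0.15 (SE, limma adjusted p = 0.0104 over all probe sets), with values near or below the array median. No direction is given for Cbx8.

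Phc1, a polyhomeotic protein that lets PRC1 cluster, had 7.78 and 7.93 in WT LMPP, against 8.09 and 8.15 in WT LSK FLT3-. The groups did not overlap, but the difference of -0.26 (95% interval -0.60 to 0.07) did not pass (limma adjusted p = 0.188), and it turned to 0.07 with quantile normalization.

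**Figure D2:**
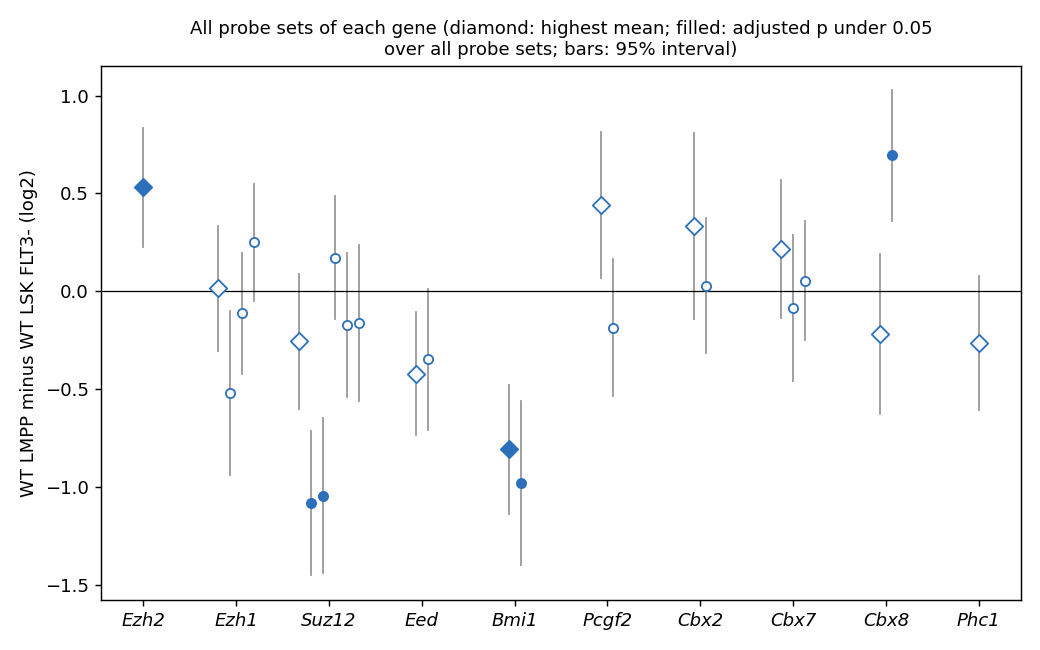
Change for WT LMPP minus WT LSK FLT3- (log2) of every probe set of each Polycomb gene; diamonds are the brightest probe sets, bars are 95% intervals, and filled symbols passed over all probe sets. Both Bmi1 probe sets are filled below 0, 2 dimmer Suz12 probe sets are filled near -1, and the dimmer Cbx8 probe set is filled at 0.69. Eed is open here because its adjusted p was 0.0559 over all probe sets.

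Between E2A-KO and WT LMPP, none of the 10 Polycomb genes passed. Over all genes 1.37% passed (0.379% higher and 0.995% lower), a share at which 10 genes would give few calls or none. By unadjusted p under 0.05, 1 of 10 passed, against 2665 of 18194 genes. Differences ran from -0.31 to 0.07 with a median of -0.07, against -0.02 over all genes, and no member passed in any of the 15 alternatives. On simulated data for this comparison, 20.7% of genes changed by 0.5 log2 units and 96.9% of genes changed by 1 were recovered, so a change of 0.5 would mostly be missed.

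Ezh2 had 10.41 and 10.29 in E2A-KO LMPP, against 10.38 and 10.35 in WT LMPP. The KO arrays lay on either side of the WT arrays. The difference was -0.01 (95% interval -0.30 to 0.27, limma adjusted p = 0.973).

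Bmi1 had 8.99 and 8.98 in E2A-KO LMPP, against 8.87 and 9.14 in WT LMPP, a difference of -0.02 (95% interval -0.33 to 0.30, limma adjusted p = 0.969). The KO arrays lay between the WT arrays. Its second probe set had 6.88 and 6.75 in E2A-KO LMPP, against 6.97 and 7.48 in WT LMPP, a difference of -0.41 that did not pass (limma adjusted p = 0.381 over all probe sets, of which 0.987% passed).

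Ezh1 had the largest difference of the 10 in size. It had 7.44 and 7.49 in E2A-KO LMPP, against 7.77 and 7.77 in WT LMPP, and averaged 7.46 ± 0.04 in E2A-KO LMPP and 7.77 ± 0.0018 in WT LMPP (SD, n = 2 each). The groups did not overlap. The difference was -0.31 ± 0.13 (SE, 95% interval -0.61 to -0.0040, limma unadjusted p = 0.0476, adjusted p = 0.336), so it did not pass over all genes, and the mean of all its probe sets gave 0.05.

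On their brightest probe sets, the other core and PRC1 genes gave intervals that included 0. Suz12 had 9.67 and 9.85 in E2A-KO LMPP, against 9.63 and 9.91 in WT LMPP, a difference of -0.01 (95% interval -0.34 to 0.33). Eed had 9.73 and 9.83 in E2A-KO LMPP, against 9.65 and 9.75 in WT LMPP, a difference of 0.07 (95% interval -0.23 to 0.37). For both genes the arrays of the groups overlapped.

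Cbx8 had 4.63 and 4.76 in E2A-KO LMPP, against 4.74 and 5.24 in WT LMPP, a difference of -0.29 (95% interval -0.69 to 0.11). Phc1 had 7.79 and 7.50 in E2A-KO LMPP, against 7.78 and 7.93 in WT LMPP, a difference of -0.21 (95% interval -0.54 to 0.12). Both overlapped between the groups. Cbx2 had 6.69 and 7.06 in E2A-KO LMPP, against 7.21 and 6.67 in WT LMPP, a difference of -0.06. Cbx7 had 4.06 and 4.14 in E2A-KO LMPP, against 4.36 and 4.12 in WT LMPP, a difference of -0.14. Pcgf2 had 4.29 and 4.15 in E2A-KO LMPP, against 4.33 and 4.28 in WT LMPP, a difference of -0.09. These intervals, the widest of which ran from -0.53 to 0.41 for Cbx2, do not show that the genes were alike in KO and WT cells. Dimmer probe sets of Pcgf2 and Cbx7 went the other way, with values below the array median. Pcgf2 1456330_at differed by 0.36 (95% interval 0.0091 to 0.71, limma adjusted p = 0.355 over all probe sets). Cbx7 1420039_s_at differed by 0.30 (limma adjusted p = 0.470), and neither passed.

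**Figure D3:**
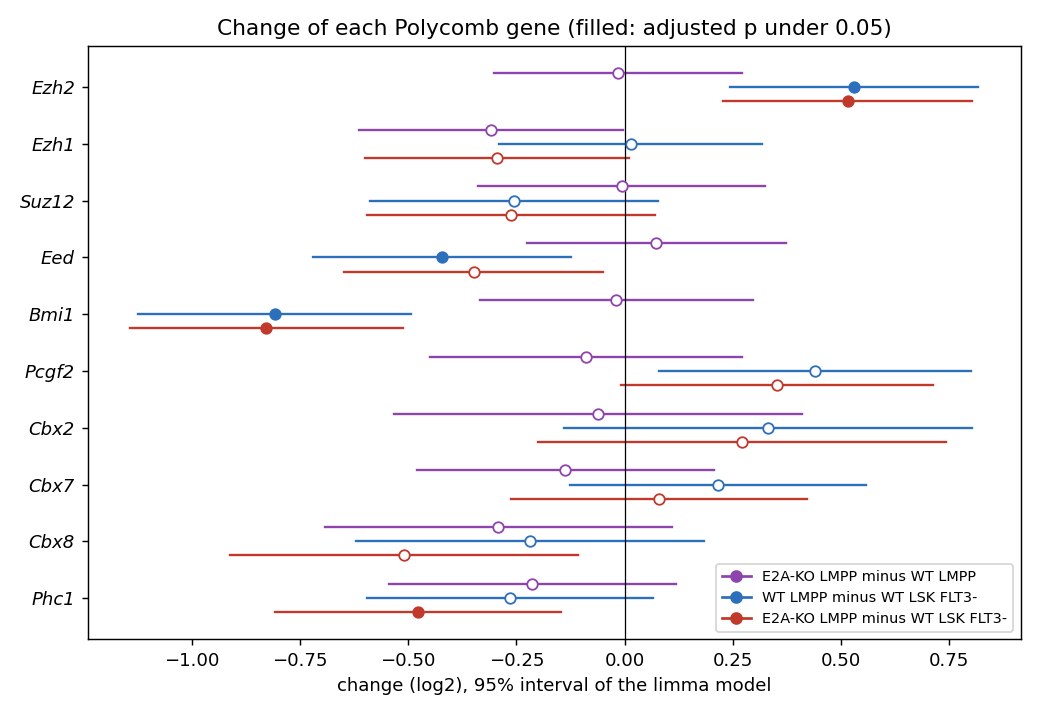
Change of each Polycomb gene (log2, with 95% intervals of the limma model) for E2A-KO LMPP minus WT LMPP, WT LMPP minus WT LSK FLT3- and E2A-KO LMPP minus WT LSK FLT3-; filled points passed an adjusted p of 0.05. Bmi1 lies at -0.81 and -0.83 against WT LSK FLT3- and at -0.02 between KO and WT LMPP, and no point of KO minus WT is filled.

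E2A-KO LMPP against WT LSK FLT3- shares the LSK FLT3- arrays with the WT comparison, so the values are given side by side and are not independent. Bmi1 was 1.78-fold lower in E2A-KO LMPP than in WT LSK FLT3- (-0.83, 95% interval -1.14 to -0.51, limma adjusted p = 0.00247), beside -0.81 for WT LMPP. Ezh2 was 1.43-fold higher (0.52, 95% interval 0.23 to 0.80, limma adjusted p = 0.0131), beside 0.53 for WT LMPP. With quantile normalization the Bmi1 change was -0.54 and still passed. The Ezh2 call did not pass without E2A-KO LMPP array 1 (limma adjusted p = 0.0594), without WT LSK FLT3- array 1 (0.0802) or without WT LSK FLT3- array 2 (0.100). In all 1 was higher, 2 were lower and 7 did not pass, where 37.5% of all genes passed (11% higher and 26.5% lower). Of the genes called, 29.3% were higher, against 44.0% with quantile normalization and 14.6% with array medians centred, and centring moved the median of all genes to -0.16.

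Phc1 had 7.79 and 7.50 in E2A-KO LMPP, against 8.09 and 8.15 in WT LSK FLT3-, and was 1.39-fold lower (-0.48 ± 0.15, SE, limma adjusted p = 0.0312). This call did not pass with quantile normalization (-0.07, limma adjusted p = 0.773), without E2A-KO LMPP array 2 (0.147) or with only 1 WT LSK FLT3- array (0.129 and 0.166). That Phc1 passed for KO and not for WT LMPP does not show a difference between them, which was -0.21 and did not pass.

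Eed differed by -0.35 (limma adjusted p = 0.0659) between E2A-KO LMPP and WT LSK FLT3-, Ezh1 by -0.29 (0.115) and Suz12 by -0.26 (0.186) on their brightest probe sets. The dimmer Ezh1 probe set 1429629_at went the other way, with 3.13 and 3.19 in E2A-KO LMPP, against 2.75 and 2.73 in WT LSK FLT3-, all below the array median. It differed by 0.42 and passed (limma adjusted p = 0.0419 over all probe sets), so no direction is given for Ezh1. Cbx8 differed by -0.51 with a limma adjusted p of 0.050025, just outside the threshold. Its dimmer probe set gave 0.45 and passed over all probe sets (limma adjusted p = 0.0494), again in the opposite direction. The dimmer Suz12 probe sets were lower here too: 1427253_s_at had 6.82 and 6.70 in E2A-KO LMPP with a change of -0.86 (limma adjusted p = 0.00516 over all probe sets), and 1452364_at had 5.18 and 5.68 with a change of -1.23 (limma adjusted p = 0.00148), where 28.5% of all probe sets passed.

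The second Bmi1 probe set differed most, by -1.39 ± 0.18 (SE, limma adjusted p = 0.00105 over all probe sets). Pcgf2 differed by 0.35 (limma adjusted p = 0.112), Cbx2 by 0.27 (0.327) and Cbx7 by 0.08 (0.700), and for these the arrays lay near the array median or overlapped between the groups.

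The profile of Ezh2 across the 6 arrays was set beside those of 6792 other genes with a mean above 6, each centred on its own mean. The 3 nearest were Cdca2, Ccna2 and Mki67, with root mean square differences of 0.024, 0.027 and 0.047 log2 units. Ccna2 encodes cyclin A2 and Mki67 the proliferation antigen Ki-67, and Cdca2 is a chromatin protein of dividing cells. Nearest to Ezh1 were Pip4k2a, a lipid kinase, Ep300, a histone acetyltransferase, and Tmem131, a membrane protein, with differences of 0.040, 0.045 and 0.045. With 6 arrays in 3 groups, nearness is a description and carries no test.

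**Figure D4:**
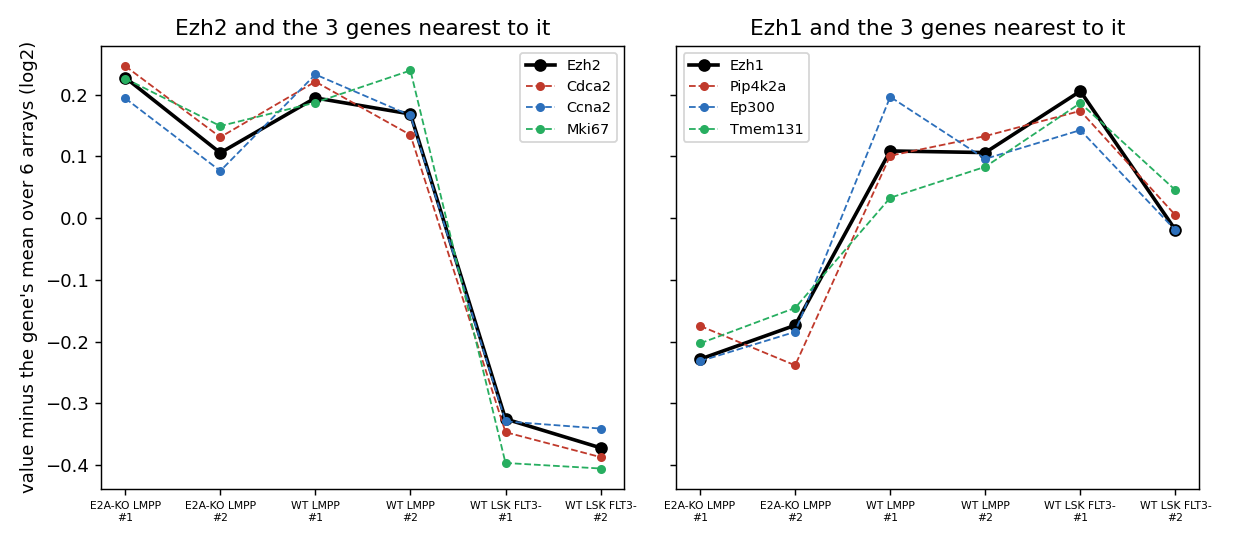
Values minus each gene's own mean over the 6 arrays (log2) for Ezh2 and Ezh1 (black) and the 3 genes nearest to each (coloured, dashed); the x axis gives the arrays from E2A-KO LMPP through WT LMPP to WT LSK FLT3-. Ezh2 and its neighbours are low on both LSK FLT3- arrays, and Ezh1 and its neighbours are low on both E2A-KO LMPP arrays.

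Some genes of the cell cycle moved beside Ezh2 between WT LMPP and WT LSK FLT3-, and others did not. Of 11 measured genes on a proliferation list of 12, 5 were higher in WT LMPP (Mki67 by 0.61, Birc5 by 0.56, Ccna2 and Rrm2 by 0.53, Top2a by 0.37), Mcm2 was lower (-0.75) and 5 did not pass. Of all genes 10.4% were higher and 23.7% lower. Those that did not pass were Cdk1 (0.24), E2f1 (0.23), Tyms (-0.01), Pcna (-0.13) and Mcm5 (-0.27). Tyms lay near the array median, at 4.24 to 4.46 on these arrays, in the low range where changes are compressed. Ccna2 and Mki67 are also among the genes nearest to Ezh2 above. Their median change was 0.24, against -0.01 over all genes. Their summed intensity was 15805 and 15106 in E2A-KO LMPP, 14775 and 15000 in WT LMPP, and 13146 and 13543 in WT LSK FLT3-. Between E2A-KO and WT LMPP, 0 of the 11 passed, where 1.37% of all genes did. The part of proliferation in the Ezh2 result was not tested.

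Markers of other cells moved with the groups as well. Summed neutrophil markers (8 measured) were 646 and 565 in E2A-KO LMPP, 2959 and 2960 in WT LMPP, and 1734 and 1617 in WT LSK FLT3-. Summed plasma cell markers (6 measured) were 928 and 948 in E2A-KO LMPP, 984 and 1051 in WT LMPP, and 2830 and 2772 in WT LSK FLT3-. The neutrophil sums stood apart in every group, with 7 of 8 genes lower in E2A-KO than in WT LMPP and 6 of 8 higher in WT LMPP than in WT LSK FLT3-. The plasma cell sums stood apart in WT LSK FLT3-, with 3 of 6 genes lower and 1 higher in WT LMPP. Mast cell markers (4 measured) summed to 61.1 and 61.2 in E2A-KO LMPP, 45.5 and 44.2 in WT LMPP, and 265 and 271 in WT LSK FLT3-, and erythroid markers (3 measured) to 78.3 and 70.3 in E2A-KO LMPP, 67.4 and 70.5 in WT LMPP, and 187 and 176 in WT LSK FLT3-. In WT LMPP against WT LSK FLT3-, 3 of 4 mast cell genes were lower, and of 3 erythroid genes 2 were lower and 1 higher. The 2 measured B cell markers and 2 of 3 T cell markers lay below the array median. The part of these cells in the Polycomb changes was not tested.

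Partners of the complexes and the enzymes that oppose them were read from lists of 36 genes, of which 34 were measured under a single symbol. Between WT LMPP and WT LSK FLT3-, 0 were higher, 9 were lower and 25 did not pass, with a median of -0.24 against -0.01 over all genes. Without the dimmest 40% of genes the median over all genes was -0.29. Only 1 of the 34 partners had a mean below the array median, so the brighter genes are the closer match. By list, 1 of 7 PRC2 partners, 6 of 20 PRC1 partners and 2 of 7 opposing enzymes were lower, beside the 23.7% of all genes that were. Without the dimmest 40% of genes 4453 were lower, against 4309 of all 18194, so the share was larger among brighter genes. Partners called lower numbered 3 with quantile normalization, 14 with array medians centred, 2 without WT LSK FLT3- array 1 and 3 without array 2.

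Among the PRC1 partners, Yaf2, which binds the RING proteins in variant PRC1, had 8.69 and 8.21 in WT LMPP, against 9.65 and 9.59 in WT LSK FLT3-. The groups were far apart for their spread, with a change of -1.17 ± 0.18 (SE, limma adjusted p = 0.00200), and its other probe set was called lower too. Kdm2b, which brings variant PRC1 to CpG islands, changed by -0.73 (limma adjusted p = 0.00645). Phc3, a relative of Phc1, changed by -0.64 (0.00682) and Cbx6, a CBX relative, by -0.56 (0.0106). Kdm2b passed in 13 of 15 alternatives, and not with the mean of all probe sets (-0.30) or without WT LSK FLT3- array 1. Phc3 passed in 12 of 15, and not with the mean of all probe sets (-0.19), with quantile normalization (-0.30) or without WT LSK FLT3- array 2. Cbx6 passed in 12 of 15, and not with quantile normalization (-0.24) or with only 1 WT LSK FLT3- array, whichever was left out. Yaf2 passed in all 15 alternatives in both comparisons with WT LSK FLT3-.

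The catalytic RING proteins of PRC1 were Rnf2 and Ring1. Rnf2 had 8.73 and 8.85 in WT LMPP, against 9.26 and 9.36 in WT LSK FLT3-, a change of -0.52 (limma adjusted p = 0.0156). Of its 4 other probe sets, 1 was called lower and 1 higher, and the mean of all gave 0.06, so the direction for Rnf2 depends on the probe set. The Rnf2 call was also lost with quantile normalization (-0.25), without WT LMPP array 1 and with either WT LSK FLT3- array left out. Ring1 differed by -0.09 (limma adjusted p = 0.621), and by 0.14 with quantile normalization.

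Among the PRC2 partners, Mtf2, which helps bring PRC2 to CpG islands, had 9.20 and 9.09 in WT LMPP, against 9.94 and 9.80 in WT LSK FLT3-. The change was -0.73 (limma adjusted p = 0.00364), and 2 of its 5 other probe sets were called the same way. The Mtf2 call passed in 14 of 15 alternatives, and not without WT LSK FLT3- array 1 (limma adjusted p = 0.0517). Jarid2, which also directs PRC2, differed by 0.09 (limma adjusted p = 0.624), by -0.02 with array medians centred, and 1 of its 2 other probe sets was called lower. Of the opposing enzymes, the H2A deubiquitinases Usp16 and Bap1 changed by -0.55 (limma adjusted p = 0.0117) and -0.42 (0.0361). Usp16 passed in 11 of 15 alternatives, and not with the mean of all probe sets (-0.24), with quantile normalization (-0.15) or with either WT LSK FLT3- array left out. Bap1 passed in 9 of 15, and not with the mean of all probe sets (-0.37), with quantile normalization (-0.11), over all probe sets, without WT LMPP array 2 or with either WT LSK FLT3- array left out.

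Between E2A-KO and WT LMPP, 1 of the 34 partners was higher, 0 were lower and 33 did not pass, where 1.37% of all genes passed (0.379% higher). At an unadjusted p under 0.05 there were 5 of 34 partners, against 2665 of 18194 genes, which are like shares. The one called was Auts2, a subunit of a variant PRC1 that is linked to gene activation in neurons. Auts2 had 7.30 and 7.39 in E2A-KO LMPP, against 5.49 and 5.31 in WT LMPP and 5.52 and 5.21 in WT LSK FLT3-. Both KO arrays stood far above the other 4. The change against WT LMPP was 1.94 ± 0.15 (SE, 3.85-fold, limma adjusted p = 0.000532), and against WT LSK FLT3- it was 1.98 (limma adjusted p = 7e-05). Of its 4 other probe sets, 1 was called the same way for KO against WT. Auts2 passed in all 15 alternatives of the KO to WT comparison, with changes from 0.65 to 2.04.

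The remaining named partners did not pass between E2A-KO and WT LMPP. Jarid2 differed by -0.35 (limma adjusted p = 0.265), Kdm6b, an H3 demethylase, by -0.39 (0.358), and Asxl2, a cofactor of Bap1, by -0.33 (0.271). Rnf2 differed by -0.26 (0.407), Phf19, a PRC2 targeting subunit, by 0.27 (0.521), Yaf2 by -0.11 (0.837) and Ring1 by -0.03 (0.951).

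Against WT LSK FLT3-, 14 of the 34 partners were lower in E2A-KO LMPP and 1 was higher, with a median of -0.35 against -0.02 over all genes. Of the PRC1 partners 10 of 20 were lower, of the PRC2 partners 1 of 7 and of the opposing enzymes 3 of 7, beside 26.5% of all genes. Without the dimmest 40% of genes the median over all genes was -0.33. There 4957 genes were lower, against 4820 of all 18194, so the share was larger among brighter genes, the closer match for the partners. The counts by list therefore do not show an excess of lower PRC1 partners. Yaf2 changed by -1.28 (limma adjusted p = 0.00120), Phc3 by -0.82 (0.00208), Mtf2 by -0.51 (0.0152), Asxl2 by -0.50 (0.0155) and Usp16 by -0.43 (0.0280, turning to 0.03 with quantile normalization). Bap1 changed by -0.37 with a limma adjusted p of 0.049996, at the threshold, and passed in 7 of 15 alternatives. Mtf2 passed in 11 of 15 (lowest in size at -0.22), Asxl2 in 10 (-0.063), Usp16 in 9 and Phc3 in 13 (-0.17). For Mtf2, Asxl2, Usp16 and Bap1 the call was lost with either WT LSK FLT3- array left out. It was lost without E2A-KO LMPP array 1 for Asxl2, Usp16 and Bap1, and without E2A-KO LMPP array 2 for Mtf2, Usp16 and Bap1. Rnf2 changed by -0.78 (0.00242) and Scmh1, a PRC1 subunit, by -0.86 (0.00744), but 2 other probe sets of each were called higher, and the mean of all probe sets gave -0.048 for Rnf2 and 0.17 for Scmh1, whose call was also lost with quantile normalization (-0.54) and without WT LSK FLT3- array 2.

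**Figure D5:**
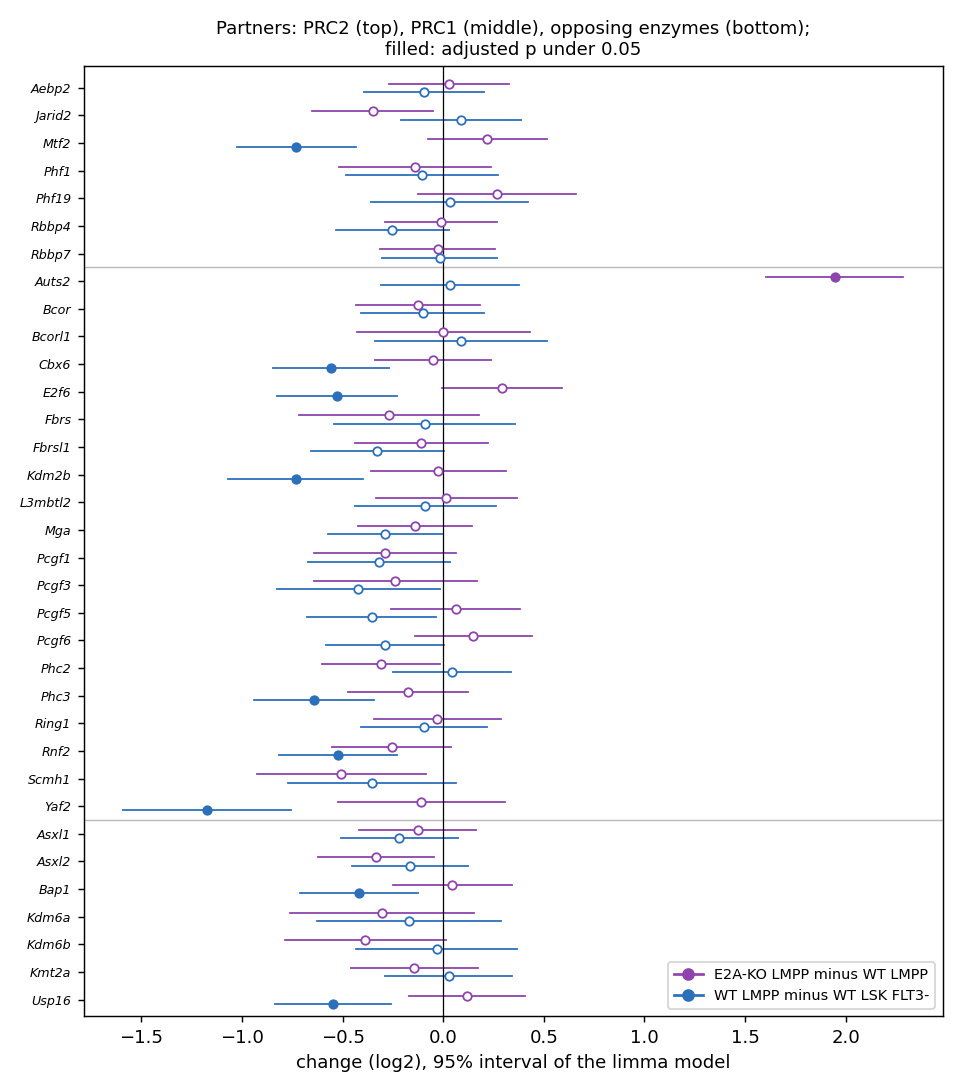
Change (log2, with 95% intervals of the limma model) of the 34 measured partners and opposing enzymes for E2A-KO LMPP minus WT LMPP and WT LMPP minus WT LSK FLT3-; filled points passed an adjusted p of 0.05. Auts2 at 1.94 is the sole filled point for KO minus WT, and the 9 filled points for WT LMPP minus WT LSK FLT3- all lie below 0.

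Genes known to be silenced by Polycomb in blood progenitors were also read: Cdkn2a and Cdkn2b, which encode cell cycle inhibitors, and Ebf1 and Pax5, regulators of B lymphocyte development. Means of 3 of the 4 lay below the array median, so these values are in the compressed range. There the values of all genes lay higher on the LMPP arrays than on the WT LSK FLT3- arrays, with lower quartiles of 3.19 to 3.22 against 3.04. The part of this offset in the differences from WT LSK FLT3- was not tested. Ebf1 was higher in WT LMPP than in WT LSK FLT3- by 0.81 (limma adjusted p = 0.00336) and Cdkn2b by 0.53 (0.0143), while Cdkn2a differed by 0.40 (0.0755) and Pax5 by 0.65 (0.0764). Ebf1 passed in 14 of 14 alternatives (0.32 to 0.96), though none of its 4 other probe sets was called the same way. Cdkn2b passed in 10 of 14, and not with quantile normalization, without WT LMPP array 1 or with either WT LSK FLT3- array left out.

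None of these 4 passed between E2A-KO and WT LMPP. Ebf1 differed by -0.34 (limma adjusted p = 0.323), Cdkn2b by 0.08, Cdkn2a by -0.02 and Pax5 by -0.08. In E2A-KO LMPP against WT LSK FLT3-, Cdkn2b was higher by 0.62 (limma adjusted p = 0.00699) and Ebf1 by 0.48 (0.0287), and Cdkn2a and Pax5 did not pass. Ebf1 passed in 6 of 14 alternatives here (0.17 to 0.54), and was lost with any 1 of the 4 arrays compared left out. None of its 4 other probe sets was called the same way. Cdkn2b passed in 12 of 14 and was lost with either WT LSK FLT3- array left out.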

How the data were processed

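Arrays of E2A-KO LMPP, WT LMPP and WT LSK FLT3- (2 each) were grouped by their titles; another free-text label calls all of them WT LMPP and was set aside. Per the labels' protocols, sorted cells were lysed directly and RNA was labelled with biotin after 2 rounds of amplification, which favours transcript 3' ends. The authors deposited linear intensity values, 1 per probe set, and the submitters' processing notes name RMA, with no version given. They run from 4.23 to 25594, and log2 was taken here. No detection calls were used, and precision is limited by how few arrays there are.

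Of 45101 probe sets, 34958 had 1 symbol in the platform annotation, 932 several and 9211 none. Each of 18194 genes was read from its single-symbol probe set with the highest mean. limma 3.58.1 in R 4.3.3 fitted 1 mean per group to all 6 arrays (3 residual and 5.8 prior degrees of freedom), so that the comparisons share 1 estimate of the spread, with two-sided p-values adjusted by Benjamini and Hochberg at 0.05. Probe sets were also fitted over all 45101. Each SD is over a group's 2 arrays. The fit was tested on simulated data in 10 runs with 200 changed genes, where 5.92% of calls were false.

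The members and lists were chosen with earlier results of these data known. Named were all members with every probe set, partners past the threshold with at least a 2-fold change, otherwise up to 4 per list with the largest change past it (up to 2 where none passed), Rnf2, Ring1 and Jarid2, the 4 repressed genes, and the 3 nearest genes to Ezh1 and Ezh2. Same-numbered arrays did not deviate together, so no pairing was seen in the values. Whether they were handled together is not given. Alternatives changed the scaling, the probe set rule, the low filter, the pseudocount, the variance model, the arrays in the fit and the replicate block, and left out each array in turn. The low filter, the variance model, the replicate block and arrays outside a comparison leave its estimate unchanged, so only the spread and the call can move. Leaving out either array of the third group repeats the fit to the 4 arrays compared. The alternatives are thus not independent checks.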

Additional observations from a re-analysis of the deposited data

How the results depend on the processing

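Bmi1 kept its direction and its call in all 15 alternatives in both comparisons with WT LSK FLT3-, though several of these cannot alter the estimate. With only 2 arrays a group, no Polycomb call other than Bmi1 survived every array left out. Leaving out 1 array at a time gave 0 to 1 members higher and 1 to 2 lower for WT LMPP against WT LSK FLT3-, with 2 lower only where the array left out was an E2A-KO LMPP one, outside that comparison. With E2A-KO LMPP in place of WT LMPP it gave 0 to 1 higher and 1 to 3 lower, with 3 lower only without a WT LMPP array, also outside the comparison, where Cbx8 passed as well. For the first comparison 1 member was lower with quantile normalization and with all probe sets as the unit. For the second, 1 was lower with quantile normalization, 4 without the dimmest 40% of genes, 4 with the mean of all probe sets, 5 with array medians centred and 4 with a pseudocount of 16. Partners lower were 3 with the mean of all probe sets, 3 with quantile normalization, 14 with array medians centred and 2 to 9 with 1 array left out for WT LMPP against WT LSK FLT3-; for E2A-KO LMPP they were 7, 5 and 4 to 15 with the mean, quantile normalization and 1 array left out. The cause was not tested.

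Signs turned as follows for WT LMPP minus WT LSK FLT3-: with the mean of all probe sets, Ezh1 -0.092, Cbx8 0.24, Jarid2 -0.23 and Rnf2 0.059; with quantile normalization, Phc1 0.075 and Ring1 0.14; with medians centred, Ezh1 -0.092, Jarid2 -0.018 and Auts2 -0.073. With 1 array left out, Ezh1 ran from -0.10 to 0.13, Cbx8 from -0.47 to 0.031, Jarid2 from -0.0080 to 0.19, Ring1 from -0.21 to 0.019 and Auts2 from -0.12 to 0.19. For E2A-KO LMPP minus WT LMPP, the mean of all probe sets gave Ezh1 0.052, Suz12 0.013, Pcgf2 0.14, Cbx7 0.093 and Pax5 0.0092, and quantile normalization gave Bmi1 0.016. With 1 array left out, Ezh2 ran from -0.076 to 0.046, Suz12 from -0.15 to 0.13, Bmi1 from -0.16 to 0.12, Cbx2 from -0.33 to 0.21, Ring1 from -0.14 to 0.085, Yaf2 from -0.35 to 0.13, Cdkn2a from -0.19 to 0.14, Cdkn2b from -0.013 to 0.18 and Pax5 from -0.47 to 0.31. For E2A-KO LMPP minus WT LSK FLT3-, quantile normalization gave Ezh1 0.14, Cbx7 -0.045, Jarid2 0.10, Ring1 0.12 and Usp16 0.026, medians centred gave Cbx7 -0.058, the mean of all probe sets gave Scmh1 0.17, and Cbx7 ran from -0.057 to 0.22 with 1 array left out. Of these, only Rnf2, Scmh1 and Usp16 had passed.

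Same-numbered arrays had correlations of their deviations of -0.04 to 0.02, so no pairing was seen in the values, which cannot show whether they were handled together. With the replicate block 1 member was higher and 2 lower in both comparisons with WT LSK FLT3-, and 0 passed between E2A-KO and WT LMPP. Cbx7 and Pcgf2 gave no value without the dimmest 40% of genes. The number of genes called between E2A-KO and WT LMPP was 548 with a variance trend and 89 with only the 4 arrays compared, against 250.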
